A study of Rattus norvegicus with 4 samples.

Results

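The 10 genes described here belong to 4 small families that code for membrane-associated proteins of synaptic vesicles, and were followed in RNA-Seq libraries of a pair of PC12 clones. The genes are Syp and Synpr of the synaptophysin family, the synaptogyrins Syngr1, Syngr2 and Syngr3, the SV2 glycoproteins Sv2a, Sv2b and Sv2c, and the synapsins Syn1 and Syn2. They were chosen by name, and a row of that name was found for 8 of the 10 among the 25810 genes of the count files. No row carried the names Syngr2 and Syn2, so neither was tested as a member. A row named SYN2_RAT, which the files do not pair with a gene symbol, is reported apart from the members. PC12 cells descend from a tumour of rat adrenal chromaffin cells (a pheochromocytoma), make catecholamines and can grow neurites. The wtPC12 clone has a low level of REST, a transcription repressor that keeps neuronal genes silent outside neurons. The hrPC12 clone comes from the same line and has a high level of REST that arose spontaneously, and neither clone was given a treatment in the descriptions used here. Total RNA of each clone was sequenced in 2 libraries, numbered here in the order of their records, and the comparison of hrPC12 with wtPC12 addresses how gene expression differs between high and low REST. With 1 clone for high and 1 for low REST, the level of REST cannot be told apart from whatever else separates the clones. The labels do not say whether the libraries of a clone came from separate cultures, so p values measure only the spread between these libraries, which may be technical.

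Synaptic vesicles store transmitter and release it when calcium enters the nerve ending. Synaptophysin, the product of Syp, is among the most abundant proteins of their membrane, and synaptoporin, synaptogyrins and the related Sypl proteins share its plan of 4 membrane-spanning segments. SV2 proteins are glycoproteins of the vesicle membrane with the fold of a transporter, and synapsins are phosphoproteins on the cytosolic face of the vesicle that tether vesicles to each other and to the cytoskeleton. Chromaffin cells and PC12 cells also carry small synaptic-like vesicles next to their large dense-core granules.

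REST binds a DNA element known as RE1, made of a left and a right part, and the promoters of the genes were therefore searched for it. RefSeq windows of the rat assembly GRCr8, from 250 bases before to 50 bases after an annotated start, were found for 8 of the 10 genes, Syngr1 and Syngr3 being the others. These windows are not of the build of the counts and were used for their sequence only. Bases are counted from the start, with 1 as its first base and −1 as the base before it. The 250 bases before the start are printed for Syp and Sv2a, which fell in hrPC12, and for Syn1, which was not called. Capitals mark GC boxes (GGGCGG, either strand) in Syp and the left part of RE1 (CAGCACC, either strand) in Syn1, whereas Sv2a held none of the motifs searched. The sequences are written along the strand of the gene.
Syp, chrX:17536450-17536699, minus strand: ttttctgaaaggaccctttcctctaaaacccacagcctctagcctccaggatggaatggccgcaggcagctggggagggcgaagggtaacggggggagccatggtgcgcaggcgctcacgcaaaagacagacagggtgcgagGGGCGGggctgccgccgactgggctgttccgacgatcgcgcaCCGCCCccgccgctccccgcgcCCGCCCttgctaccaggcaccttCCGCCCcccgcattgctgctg
Sv2a, chr2:186430113-186430362, plus strand: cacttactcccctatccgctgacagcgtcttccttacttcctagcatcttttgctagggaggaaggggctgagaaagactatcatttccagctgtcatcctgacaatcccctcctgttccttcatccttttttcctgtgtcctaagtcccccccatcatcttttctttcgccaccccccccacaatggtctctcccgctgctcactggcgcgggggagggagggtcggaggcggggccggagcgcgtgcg
Syn1, chrX:3725495-3725744, plus strand: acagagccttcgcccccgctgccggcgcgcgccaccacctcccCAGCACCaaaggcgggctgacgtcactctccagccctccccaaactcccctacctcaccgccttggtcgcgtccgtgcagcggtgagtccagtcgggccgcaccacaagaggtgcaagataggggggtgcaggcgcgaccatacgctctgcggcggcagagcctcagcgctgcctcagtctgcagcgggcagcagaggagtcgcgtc

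Syp had 4 GC boxes before its start, at −108, −66, −44 and −21 by their first base. Of the 8 windows, 5 held a GC box, those of Syp, Syn1, Sv2c, Syn2 and Syngr2, with 3 boxes before the start in Syn2 and in Syngr2, 2 in Sv2c and, in Syn1, 1 after the start. In Syn1 the letters of the left part of RE1 lay at −207 to −201, with no right part in the window. A cyclic AMP response element (TGACGTCA) followed at −190 to −183. The left part of RE1 was also found in the windows of Syp, at 44 to 50, the end of the window, and of Sv2b, at −143 to −137 on the other strand. These matches are shown with their neighbouring bases, with the left part of RE1 or its reverse complement in capitals.
Syp, chrX:17536400-17536429, minus strand: cgtggtgaatcaggtacgcgctcCAGCACC
Sv2b, chr1:138562383-138562412, minus strand: gagagggctggGGTGCTGcaggggactggg

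The 3 genes with the left part were Syp, which fell, Syn1, which was not called, and Sv2b, which was higher in both hrPC12 libraries without passing the test. The left part was present in 6.78% of all 33469 windows, the right part (GGACAG, either strand) in 21.7% and in no member, the GC box in 33.1% and the cyclic AMP response element in 1.83%. The whole RE1 motif was found in 18 windows (0.0538%), none of a member. A site cut by the edge of a window could not be found whole. In Syp the left part ended at the last base of the window, so the bases after it were not searched. The window of Syn1 opens with acag, the last letters of the right part, so a right part cut there would be missed. The windows cover a small stretch around the start, and a match or its absence says nothing of whether REST binds elsewhere at the gene. The windows of the 8 genes held from 5 (Synpr) to 32 (Sv2c) CG dinucleotides, where the median of all windows was 7.

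The libraries held 20.975 M and 21.9992 M reads on genes in wtPC12 replicates 1 and 2, and 27.2465 M and 21.6349 M in hrPC12. Values are normalized counts, that is, reads scaled with edgeR's TMM factors to a common depth, and at 3 reads a library holds from 2.54 to 3.49 normalized counts, the limit of detection used here. Rest itself had 43.0 and 132 normalized counts in the wtPC12 libraries and 964 and 915 in the hrPC12 libraries, so the clones did not overlap but the wtPC12 libraries differed 3.06-fold. Its log2 FC was 3.42, and in edgeR the p adjusted after Benjamini and Hochberg, as throughout, was 0.0115. Of 10 markers of chromaffin or PC12 cells, 9 were found, of which 5 were lower past the thresholds given below. The summed level of these 9 was 955351 and 816734 normalized counts in wtPC12 against 47390 and 51442 in hrPC12. Most of it in wtPC12 was Chgb (687936 and 626776), whereas Ddc had 24196 and 20841 in wtPC12 and 26281 and 27995 in hrPC12. Among 8 fibroblast markers, 7 were found and 4 were higher, with a summed level of 172 and 131 against 84759 and 89166. Almost all of it in hrPC12 was Col3a1 (83801 and 88143), and Lum was at 0 in wtPC12. Dcn, another of these markers, had 36.1 and 21.6 normalized counts in wtPC12 against 2.54 and 4.05 in hrPC12. It was near the limit of detection in hrPC12 and was not called lower. Of the Schwann and glial markers, Sox10 and Foxd3 were at 0 in all 4 libraries. Of 8 leukocyte markers, 7 were found and 1 was higher. Their summed level was 51.2 and 44.3 in wtPC12 and 432 and 508 in hrPC12, where it was mostly Cd14. Ptprc (1 and 0 reads in hrPC12, none in wtPC12) and Itgam (1 and 0 reads in wtPC12, none in hrPC12) stayed under 3 reads in every library. Endothelial markers, of which 4 of 5 were found and 1 was higher, reached 95.4 and 115 against 627 and 619, mostly Vwf. The chromaffin, fibroblast, leukocyte and endothelial levels moved with the clones, and their part in the results was not tested.

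Of the 8 genes found, 6 could be tested, and 3 of these fell in hrPC12. A gene was called DE when its adjusted p in the quasi-likelihood test of edgeR was under 0.01 and its log2 FC (hrPC12 over wtPC12) went past 2 in either direction. In RNA of whole cultures, fewer cells that hold a transcript and less of it per cell cannot be told apart. By these thresholds Syp, Syngr3 and Sv2a were lower, while none of the 6 genes was higher, where 5.46% of the 13726 tested genes were lower and 4.84% higher. Sv2b was the only tested member with a higher mean in hrPC12, and DESeq2 also called no member higher. Without wtPC12 replicate 2 the calls of Syp, Syngr3 and Sv2a were lost, with log2 FC values of −4.77, −3.38 and −2.27. Synpr and Sv2c had reads in 1 clone only and were not tested, since the filter asks for reads in both clones, along with a mean over the libraries of no less than 5 normalized counts. In 5 of the 6 tested members both hrPC12 libraries lay under both wtPC12 libraries, and in Sv2b both lay over them, where 35.6% and 37.9% of all tested genes did so. Without regard to the fold, 3 members were lower and 0 higher with an adjusted p under 0.01 (7.14% and 5.94% of all tested genes). The 6 genes had a median log2 FC of −1.91, where that of all tested genes lay at 0.06. Each of the 6 had a mean above 5 normalized counts in both clones, with Sv2b in wtPC12 the lowest at 6.58.

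**Figure D1:**
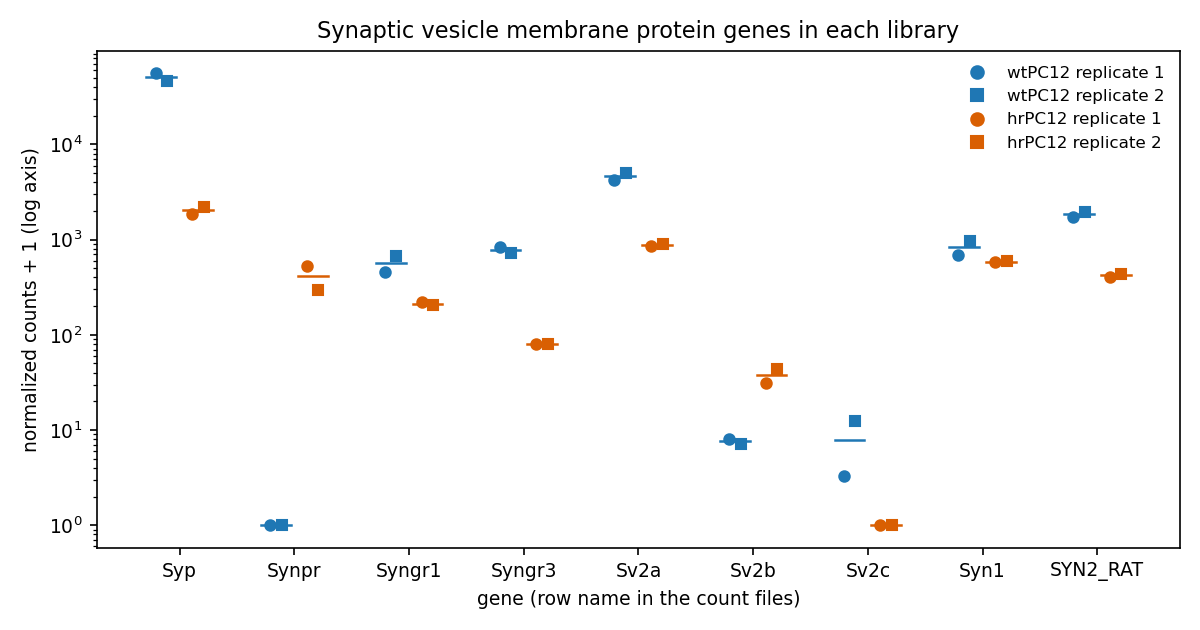
Normalized counts plus 1 (log axis) of the 8 members found and of the row SYN2_RAT in each library, circles for replicate 1 and squares for replicate 2 of wtPC12 (blue) and hrPC12 (orange), with a line at the mean of each clone. Syp lies at 46571 or more in the wtPC12 libraries and at 2204 or less in hrPC12, and Synpr is at 0 in wtPC12 and at 531 and 292 in hrPC12.

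Within the synaptophysin family the 2 members stood on opposite sides. Syp had 55732 and 46571 normalized counts in the wtPC12 libraries and 1875 and 2204 in the hrPC12 libraries. In wtPC12 it ranked 19 among the 13726 tested genes by mean normalized count, a rank that favours long transcripts because counts are not scaled by length. It fell 25.1-fold in the fit, with means of 51151 ± 6478 and 2039 ± 232 (SD, n = 2 libraries each). The fitted difference was several times its error (log2 FC −4.65, standard error (SE) 0.25, edgeR adjusted p = 0.000514). The transcript stayed well above the limit of detection in hrPC12, with 2215 and 2178 reads. Synpr codes for synaptoporin, a close relative of synaptophysin found in a subset of synapses. It had 0 and 0 reads in wtPC12, and 627 and 289 reads, or 531 and 292 normalized counts, in hrPC12. It was at least 125-fold higher in hrPC12 relative to 3 reads in each wtPC12 library, and at least 88.9-fold without hrPC12 replicate 1. Its level in that library was 1.82 times that in replicate 2, where the tested genes had a median ratio of 0.997 and 5th and 95th percentiles of 0.698 and 2.03. It is among 268 genes that pass the level asked of tested genes and have reads in hrPC12 only, against 113 with reads in wtPC12 only.

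The relatives Sypl1 and Sypl2, which code for synaptophysin-like proteins found beyond neurons, also went apart. Sypl1 had 456 and 506 normalized counts in wtPC12 and 2811 and 1579 in hrPC12. It rose 4.56-fold (log2 FC 2.19, SE 0.33, edgeR adjusted p = 0.00907). This call was lost without hrPC12 replicate 1 (log2 FC 1.72) and, by the adjusted p alone, without wtPC12 replicate 1 (log2 FC 2.08). It was also lost under glmTreat (edgeR adjusted p = 0.834), which tests for a change past the fold threshold rather than for any change. The gene for mitsugumin, Sypl2, which is known from skeletal muscle, had 99 and 130 reads in wtPC12 and 2 in each hrPC12 library, under the limit of detection, so that it entered the test through wtPC12. It was called lower, and its summed reads were 67.9-fold lower in hrPC12, with a 95% interval from 26.1 to 251 that covers counting error only.

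Among the synaptogyrins, Syngr3 fell and Syngr1 did not pass the test. Syngr3, the neuronal member known to bind the dopamine transporter, had 826 and 716 normalized counts in wtPC12 and 78.7 and 79.9 in hrPC12. The hrPC12 libraries were nearly equal, and the gene fell 9.70-fold in the fit, with means of 771 ± 77.8 and 79.3 ± 0.853 (SD, n = 2 each). The test passed (log2 FC −3.28, SE 0.26, edgeR adjusted p = 0.00133), but the call was lost under glmTreat (edgeR adjusted p = 0.0112). Syngr1, a synaptogyrin of brain synaptic vesicles, had 455 and 674 normalized counts in wtPC12 and 218 and 205 in hrPC12. Its log2 FC was −1.42 (SE 0.30, edgeR adjusted p = 0.0235), within the fold threshold in every setting run. The clones did not overlap, but the wtPC12 libraries differed 1.48-fold, and leaving out wtPC12 replicate 2 gave a log2 FC of −1.10, leaving out replicate 1 one of −1.70. Syngr4, a distant member outside the chosen list, had 11.6 and 17.5 against 19.5 and 14.2 normalized counts, and the clones overlapped.

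The SV2 genes showed a low-level member next to an abundant one, and they did not move alike. Sv2a, the broadly expressed SV2 isoform of neurons and endocrine cells and the binding site of the drug levetiracetam, had 4239 and 5046 normalized counts in wtPC12 and 856 and 908 in hrPC12. It fell 5.27-fold in the fit, with means of 4643 ± 571 and 882 ± 36.6 (SD, n = 2 each), with no overlap of the clones. The test passed (log2 FC −2.40, SE 0.19, edgeR adjusted p = 0.00124). Under glmTreat, which tests for a change past the fold threshold rather than for any change, its adjusted p was 0.113. Sv2b, an isoform of brain, had 6 reads in each wtPC12 library and 36 and 42 in the hrPC12 libraries. These correspond to 6.98 and 6.18 against 30.5 and 42.5 normalized counts, a log2 FC of 2.45 (SE 0.49, edgeR adjusted p = 0.0195), past the fold threshold and not past the p threshold. Its adjusted p was 0.00691 without hrPC12 replicate 1 and 0.0373 with DESeq2. Sv2c, the isoform of the basal ganglia, had 2 and 11 reads in wtPC12 and none in hrPC12. Since a count of 0 allows up to 3 reads, the mean was at least 2.45-fold lower in hrPC12, a bound that rests on wtPC12 replicate 2, as replicate 1 was itself under the limit of detection. Svop, which codes for an SV2-related protein and stands outside the chosen list, had 983 and 974 normalized counts in wtPC12 and 9.31 and 15.2 in hrPC12, and fell 79.9-fold (log2 FC −6.32, SE 0.36, edgeR adjusted p = 0.000626).

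Neither Syn1 nor Syn3, the synapsin genes found by name, passed the test. Syn1, the synapsin of mature nerve terminals and a gene long known to carry RE1, had 687 and 973 normalized counts in wtPC12 and 579 and 590 in hrPC12. Whether the left part found in its window belongs to that RE1 was not tested. Both hrPC12 libraries were lower, yet the difference was of the size of that between the wtPC12 libraries, with a log2 FC of −0.51 (SE 0.26, edgeR adjusted p = 0.182). With each library left out in turn its log2 FC ranged from −0.77 to −0.23. On GRCr8 the gene Timp1 lies inside Syn1 and Araf overlaps one of its ends, with 31 to 44 and 2526 to 2944 reads in the 4 libraries, and the kit does not mark strand. Any share of such reads in the Syn1 counts was not tested. A row named SYN2_RAT has the form of a protein entry name, which the files do not pair with a gene symbol, so it was kept apart from Syn2 and was chosen after its values were seen. It had 1743 and 1959 normalized counts in wtPC12 and 405 and 436 in hrPC12. It fell 4.40-fold (log2 FC −2.14, SE 0.20, edgeR adjusted p = 0.00224), and its adjusted p was 0.733 under glmTreat and 0.0174 without wtPC12 replicate 2. Syn3, a synapsin outside the chosen list, had 13.96 and 22.7 normalized counts in wtPC12 and 37.2 and 38.4 in hrPC12, a log2 FC of 1.04 (SE 0.45, edgeR adjusted p = 0.131). Timp3 lies inside Syn3 on GRCr8 and had 2 and 1 reads in wtPC12 and 229 and 244 in hrPC12, and its part in the Syn3 counts was not tested.

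The ratio of reads between related genes of a library does not depend on the scaling of libraries. As reads were not scaled by transcript length, a ratio is not a ratio of levels, but its change between the clones is free of length. For 100 reads on Syp there were 0.818 and 1.09 reads on Sypl1 in the wtPC12 libraries, and 150 and 71.7 in the hrPC12 libraries, a 110-fold change. Synpr had no read for any number of Syp reads in wtPC12, and 28.3 and 13.3 per 100 in hrPC12. Of all reads on Syp, Synpr, Sypl1 and Sypl2, Syp thus held 99.0% and 98.6% in wtPC12 and 35.9% and 54.0% in hrPC12. Within the synaptogyrins there were 55.1 and 94.1 reads on Syngr1 per 100 on Syngr3 in wtPC12, and 276 and 257 in hrPC12, a 3.70-fold change. For 100 reads on Sv2a, Sv2b had 0.165 and 0.122 in wtPC12 and 3.56 and 4.68 in hrPC12, a 28.8-fold change, and Sv2a still held 96.6% and 95.5% of the SV2 reads in hrPC12. Syn1 had 39.5 and 49.7 reads per 100 on SYN2_RAT in wtPC12, and 143 and 135 in hrPC12. In each of these pairs the libraries of the clones did not overlap, and an exact 2-sided permutation test of 2 against 2 libraries cannot give a p under 0.333.

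**Figure D2:**
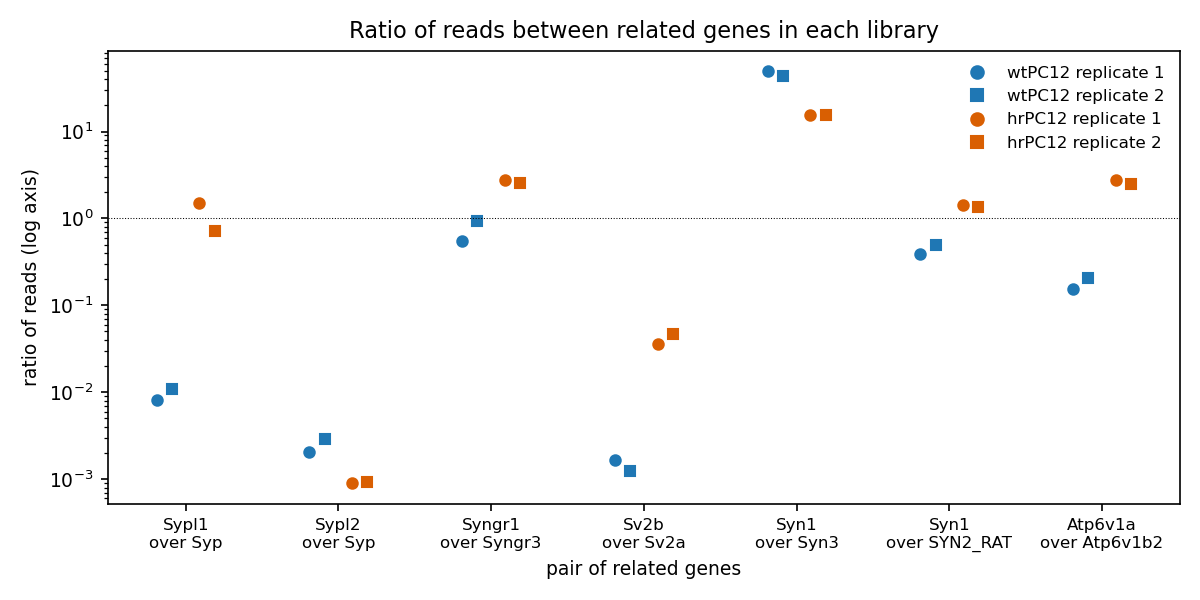
Ratio of reads between related genes (log axis) in each library, circles for replicate 1 and squares for replicate 2 of wtPC12 (blue) and hrPC12 (orange), with a dotted line at equal reads. The ratio of Sypl1 to Syp lies near 0.01 in wtPC12 and between 0.717 and 1.5 in hrPC12, and that of Atp6v1a to Atp6v1b2 goes from 0.152 and 0.208 to 2.77 and 2.5.

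To place the members among other genes of the vesicle, a list of 59 companion genes was drawn up by role, of which 50 had a row of that name and 46 were tested. Past both thresholds 14 were lower and 3 higher in hrPC12, with 17 lower and 3 higher by the adjusted p alone, and 26 did not pass it. Over all tested genes these shares were 5.46% and 4.84% past both thresholds and 7.14% and 5.94% by the adjusted p alone, so the 3 higher companions are near the share of all genes. The 14 include Sypl2 and Slc18a3 and the 3 include Sncg, which were under the limit of detection in 1 clone and entered the test through the other. The companions' median log2 FC was −0.46. In 25 of the 46 both hrPC12 libraries lay under both wtPC12 libraries, in 12 they lay over them and in 9 the clones overlapped, where 35.6% of all tested genes lay under and 37.9% over.

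Of the vesicular transporters, which load vesicles with transmitter, 6 of 10 were tested and 2 fell. Slc18a1, the monoamine transporter of chromaffin cells, had 18628 and 16356 normalized counts in wtPC12 and 11.9 and 25.3 in hrPC12, a log2 FC of −9.90 (SE 0.43, edgeR adjusted p = 0.000328). The acetylcholine transporter gene Slc18a3 had 391 and 271 reads against 2 in each hrPC12 library, likewise under the limit of detection, and its summed reads were 196-fold lower, with a 95% interval from 76.3 to 722. Slc18a2, the monoamine transporter of neurons, had 209 and 147 against 218 and 115 normalized counts, and the clones overlapped. For the glutamate transporter genes, Slc17a7 had 677 and 888 against 1016 and 1076 normalized counts (adjusted p = 0.211, edgeR), and Slc17a6 had no read in wtPC12 and 57 and 44 reads in hrPC12, at least 14.1-fold higher. Slc17a8 had no read in any library, which allows up to 3 reads in each.

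Of the proton pump that drives this loading, 2 of 8 tested subunit or accessory genes fell, and 6 did not pass. Atp6v1b2, a B subunit gene, had 59548 and 47720 normalized counts in wtPC12 and 2792 and 3219 in hrPC12, and fell 17.8-fold (log2 FC −4.16, SE 0.25, edgeR adjusted p = 0.000686). Atp6v1g2, a G subunit of neurons, had 409 and 355 against 40.6 and 35.4 and fell 10.01-fold, a call lost under glmTreat (edgeR adjusted p = 0.0175). The catalytic subunit gene Atp6v1a had 9075 and 9945 against 7747 and 8059 normalized counts, with a log2 FC of −0.27 (SE 0.16). Thus there were 15.2 and 20.8 reads on Atp6v1a per 100 on Atp6v1b2 in wtPC12, and 277 and 250 in hrPC12.

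Of the 3 vesicle SNARE genes, which code for the synaptobrevins that drive fusion, 1 fell past both thresholds. Vamp1 fell 10.7-fold (log2 FC −3.42, SE 0.21), Vamp2 had a log2 FC of −1.48 (SE 0.19, edgeR adjusted p = 0.00546) that is within the fold threshold, and the broadly expressed Vamp3 had a log2 FC of 0.32 (SE 0.24). Among proteins bound to vesicles, Sncb, which codes for a synuclein, fell 26.6-fold, from 4572 and 3700 to 146 and 164 normalized counts. The GTPase gene Rab3a fell 4.95-fold, from 1923 and 1533 to 339 and 359, a call lost under glmTreat (edgeR adjusted p = 0.306). Sncg, another synuclein gene, had 2 and 0 reads in wtPC12 and 84 and 83 in hrPC12. It was under the limit of detection in wtPC12 and entered the test through hrPC12, where it was called higher, a call lost under glmTreat (edgeR adjusted p = 0.0262). Without wtPC12 replicate 1 it could not be tested. Its summed reads were 70.4-fold higher, with a 95% interval from 19.2 to 587. The chaperone gene Dnajc5 (log2 FC −0.32) and Vat1 (log2 FC −0.56) did not pass. Of the secretory carrier membrane proteins, Scamp1 had a log2 FC of −1.12 (edgeR adjusted p = 0.00864), within the fold threshold, whereas Scamp2 and Scamp4 had adjusted p values of 0.288 and 0.937.

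Of the genes for the retrieval of vesicles from the plasma membrane, 10 were tested, 4 fell and 1 rose. Dnm1, the neuronal dynamin that pinches off vesicles, had 5997 and 6840 normalized counts in wtPC12 and 154 and 159 in hrPC12 and fell 41.0-fold. Dnm3 fell 8.04-fold, while the ubiquitous Dnm2 had a log2 FC of −0.38 (SE 0.16, edgeR adjusted p = 0.121). The endophilin genes Sh3gl2 and Sh3gl3, whose products bend the membrane, fell 37.7-fold and 14.8-fold. The calls of Dnm3 and Sh3gl3 were lost under glmTreat (edgeR adjusted p = 0.0602 and 0.0211). Synj1, the synaptojanin of nerve terminals, had a log2 FC of −0.53 (adjusted p = 0.217, edgeR), whereas the more widespread Synj2 rose 14.2-fold, with 29.1 and 38.1 against 645 and 315 normalized counts. The call of Synj2 was lost under glmTreat (edgeR adjusted p = 0.0339) and, by the adjusted p alone, without wtPC12 replicate 1 (log2 FC 3.61). Amph, which codes for amphiphysin, was higher in both hrPC12 libraries, with 660 and 1007 against 1575 and 1630 normalized counts, and an adjusted p of 0.0493 (edgeR), while the related Bin1 had a log2 FC of −1.70 (adjusted p = 0.00297). Picalm, a clathrin adaptor, had a log2 FC of 0.85 (adjusted p = 0.0556, edgeR). Of the kinases that phosphorylate synapsins and Cdk5r1, which codes for an activator of Cdk5, Camk2b fell 15.02-fold, from 1822 and 1757 to 112 and 126 normalized counts, and the other 5 tested, Camk1, Camk2g, Cdk5, Cdk5r1 and Prkaca, did not pass.

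**Figure D3:**
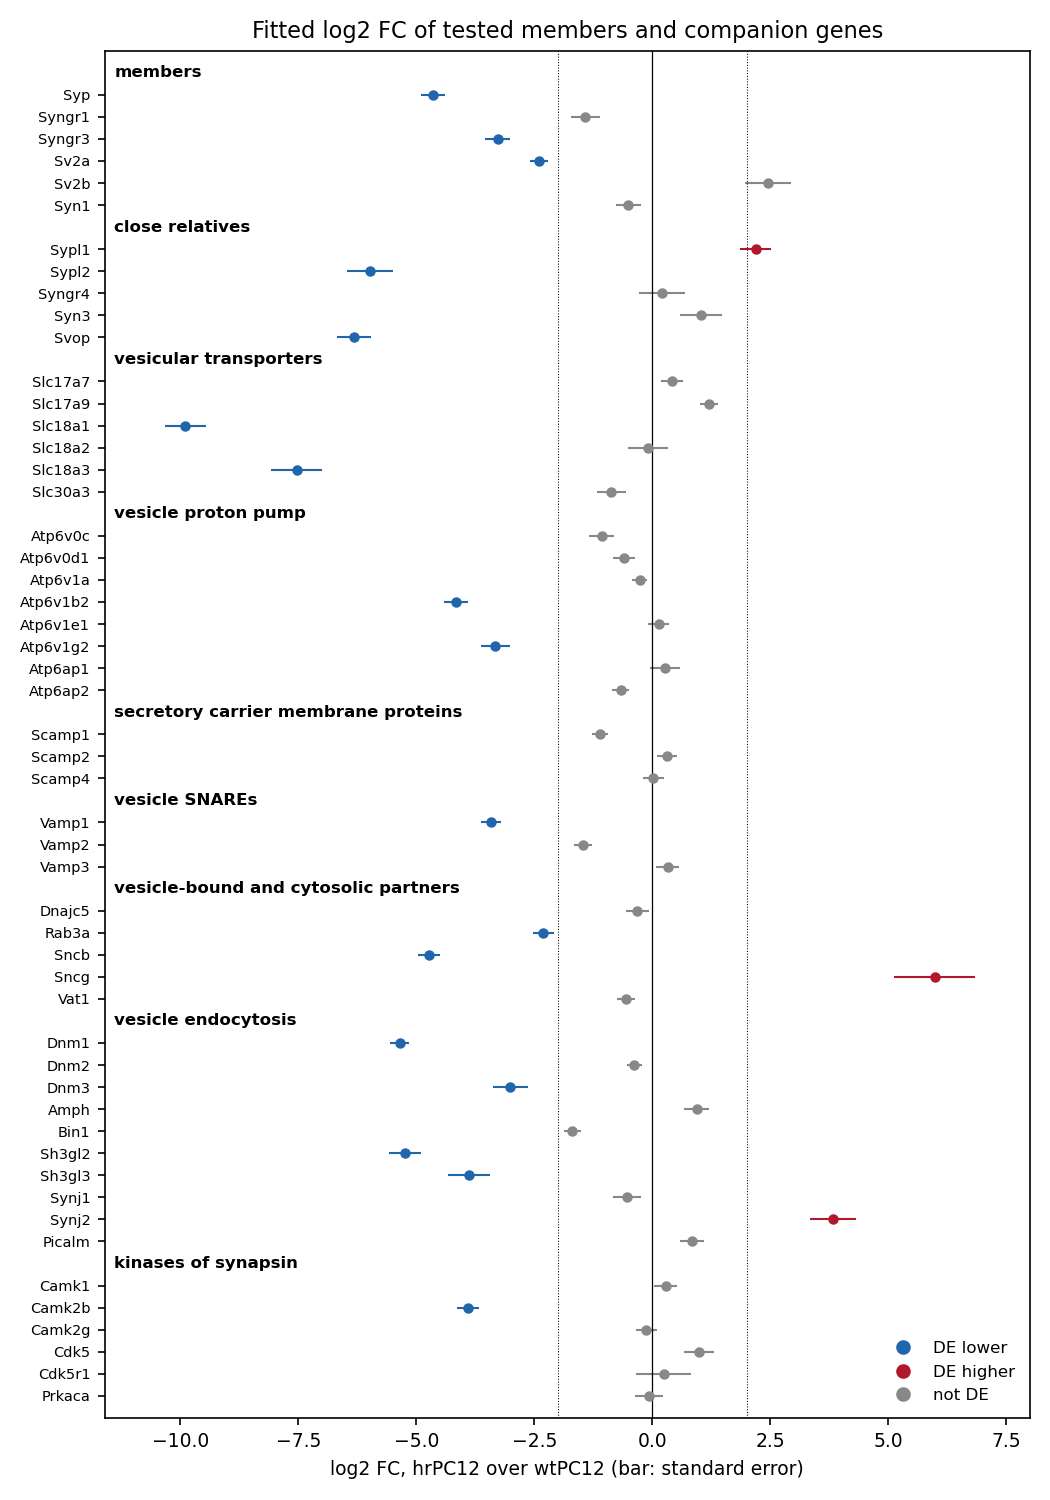
Fitted log2 FC (hrPC12 over wtPC12) with its SE for the 6 tested members and the 46 tested companion genes, grouped by role, with DE genes in blue (lower) and red (higher), other genes in grey and dotted lines at the fold threshold of 2. Among the members Syp lies lowest at −4.65 and Sv2b highest at 2.45, and the lowest companion is Slc18a1 at −9.90.

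The 5 tested genes whose log2 CPM over the 4 libraries lay nearest to those of Syp were, in this order, Atp6v1b2, Cox4i2, Gstm1, Ptprn and Hmox1. Their distances, the square root of the summed squared differences over the 4 libraries, ran from 0.799 to 1.93 log2 units. Cox4i2, a subunit of cytochrome oxidase, fell from 39287 and 22497 to 2531 and 2976 normalized counts, and Ptprn, a membrane protein of dense-core granules, from 21399 and 21350 to 2530 and 2569. Gstm1, a glutathione transferase gene, fell 10.03-fold and Hmox1, the gene of heme oxygenase, fell 10.7-fold. With 2 clones, any gene of like level and fold is near to Syp by this measure.

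The alternatives left the direction of each tested member as it was. The log2 FC of Syp ranged from −4.81 to −4.54, that of Syngr3 from −3.38 to −3.20 and that of Sv2a from −2.55 to −2.27. Sv2b lay between 2.15 and 2.67 and thus above the fold threshold in every setting, so that its call turned on the adjusted p alone.

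**Figure D4:**
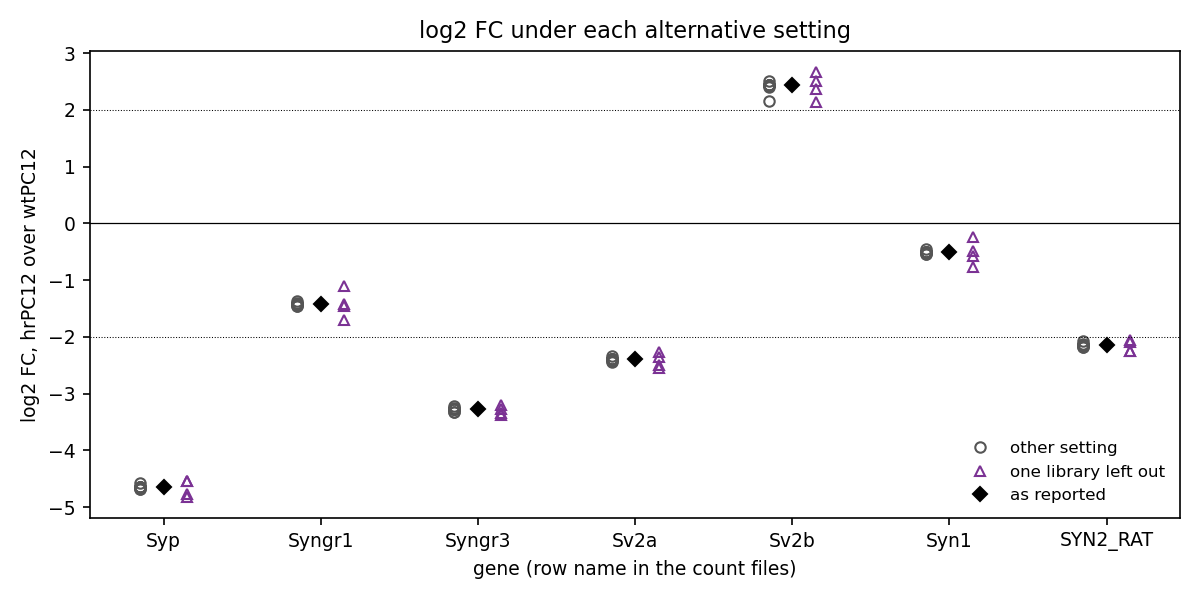
log2 FC (hrPC12 over wtPC12) of each tested member and of SYN2_RAT as reported (diamonds), with one library left out (triangles) and under each other setting (circles), with dotted lines at the fold threshold of 2. No gene crosses 0, and Sv2a stays below the lower threshold in each setting.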

How the data were processed

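Total RNA of 2 PC12 clones, with 2 libraries each, was prepared with the TruSeq RNA v2 kit, which does not mark strand, and sequenced in pairs. The authors aligned reads to RGSC3.4/rn4 and counted them per gene; TopHat2 2.0.4, HTSeq 0.5.3 and DESeq 1.9.12 are named in the submitters' processing notes. The deposited values are raw read counts per gene. Rows that name no gene (unassigned reads) were left out, and 37.9% to 41.3% of all counted reads were on genes. A deposited table of DESeq results holds the study's own means, fold changes and p values and was not used.

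Counts were tested in R 4.3.3 with edgeR 4.0.16 (TMM, quasi-likelihood, Benjamini-Hochberg over 13726 genes), with the same thresholds for every gene and a prior count of 0.125. The script was tested on simulated data. Named were all members, Rest, every companion gene found and the 5 genes nearest to Syp. Alternatives were RLE factors, library totals, 2 other filters, edgeR without its legacy option, DESeq2 1.42.0, glmTreat, a looser p, prior count 2 and each library left out. Members and lists were chosen with earlier results of these data known. Intervals cover counting error only, as reads without molecular identifiers are not independent molecules. Some marker genes are not reported here.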

Additional observations from a re-analysis of the deposited data

How the results depend on the processing

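Of the 6 tested members, none changed direction in any setting run. Members called lower numbered 3 as reported, 1 with glmTreat (Syp), and 0 to 3 with 1 library left out, the 0 being without wtPC12 replicate 2. glmTreat gave Syngr3 an adjusted p of 0.0112 and Sv2a 0.113. Members called higher numbered 0 as reported, 1 when every gene with a read was tested and 1 with edgeR's filterByExpr (Synpr, which both keep), 1 at an adjusted p under 0.05 (Sv2b), and 0 to 1 with 1 library left out, the 1 being Sv2b without hrPC12 replicate 1. Their median log2 FC ranged from −2.12 to −1.68 with 1 library left out. Companions called lower numbered 14 as reported, 10 with glmTreat, and 0 to 14 with 1 library left out. Companions called higher numbered 3 as reported, 4 when every gene with a read was tested and with filterByExpr (Slc17a6 added), 0 with glmTreat, and 0 to 3 with 1 library left out. Over all genes 749 were called lower and 665 higher as reported; in all, 674 were called with glmTreat, 0 without wtPC12 replicate 2, and 1162 to 1821 without 1 of the others. Why wtPC12 replicate 2 matters so was not tested. Rest, which did not pass as reported, passed in 9 of 13 alternatives, 1 of them the looser adjusted p of 0.05. The read ratios kept their direction with each library left out. The scaling of family shares by coding length was not run, as no lengths were used here. No paired analysis was possible because the labels of the clones share fewer than 2 replicate numbers: the numbers 1 and 2 used here follow the order of the records and pair nothing. Depth limits Sv2b, Sv2c, Sypl2, Slc18a3 and Sncg, which had few reads in at least 1 clone.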

Other observations

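Beyond the companion list, the files hold 21 rows named as subunits or accessory proteins of the vacuolar proton pump, a set chosen after its values were seen. Of these, 15 were tested, 2 fell (Atp6v1b2 and Atp6v1g2) and 0 rose, where 5.46% of all tested genes were lower and 4.84% higher. The other 13 did not pass the adjusted p. The median log2 FC was −0.27. For the G subunits, the widespread Atp6v1g1 had 4431 and 3016 normalized counts in wtPC12 and 7601 and 8758 in hrPC12 (log2 FC 1.14, adjusted p = 0.0237, edgeR), whereas the neuronal Atp6v1g2 fell and Atp6v1g3 had no read in any library. Atp6v1b1, the B subunit of kidney, had at most 4.12 normalized counts in any library, against 2792 to 59548 for Atp6v1b2. Atp6v1d had 1434 and 1036 against 3475 and 2013 normalized counts, with a log2 FC of 1.15 (adjusted p = 0.0525, edgeR).

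On GRCr8 a gene for a tissue inhibitor of metalloproteinases lies inside each synapsin gene. Timp1, inside Syn1, had 34 and 31 reads in wtPC12 and 44 and 31 in hrPC12. Timp4, inside Syn2, had 0 and 15 against 9 and 4 reads. Timp3, inside Syn3, had 2 and 1 against 229 and 244 reads. These genes were chosen after their values were seen.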
